A study of Homo sapiens with 9 samples.

Results

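The 39 genes described here encode the actin filament system that lets a cell contract and grip its surroundings, together with the transcription factor SRF. They were taken by gene symbol from a table of 60603 genes, and each of the 39 was found once. The cells are TC32, a single established line of Ewing sarcoma cells with the EWS::FLI1 fusion, harvested 30 h after plating. The table holds RNA sequencing of them, labelled as polyA RNA. It has 3 groups of 3 libraries, labelled as biological replicates: siEF, given an siRNA that spans the breakpoint of EWS::FLI1; siNEG, given a nonspecific siRNA; and Media. The labels give every group the genotype WT, the same serum and the same batch, and do not say whether the Media cells received a transfection reagent. The treatment text of the Media samples also speaks of plating on siRNA, and this was not settled. The comparison of siEF with siNEG asks how transcript levels of these genes differ when the fusion is silenced. The comparison of siNEG with Media asks the same of the siRNA procedure itself, as far as the Media cells did not receive it.

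Actin filaments are polymers of cytoplasmic or muscle-type actin. Myosin II pulls on them, tropomyosins, calponins and caldesmon coat them, filamins and alpha-actinins tie them together, and vinculin, talin, zyxin and paxillin couple them to integrins at focal adhesions. Many of these genes are transcribed through SRF, which binds a short DNA element called the CArG box. MRTF cofactors are held in the cytoplasm by monomeric actin and join SRF in the nucleus when actin polymerises, so the pool of free actin controls the genes that make the filaments. EWS::FLI1 is an ETS-family fusion that binds GGAA repeats, and its targets are read in this cell line by silencing it.

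CArG boxes were looked for near the annotated starts of these genes. Only the exact form CCWWWWWWGG, with W being A or T, was searched, so boxes with another letter in the core were not counted. RefSeq promoter windows on GRCh38.p14, from 250 bases before to 50 bases after each annotated start, were given for 35 of the 39 genes (76 windows), and none for ACTB, MYH11, MYL9 and TAGLN. A CArG box was found in 11 of these 35 genes and in 13 of the 76 windows (17.1%), against 1.17% of the windows of all tested genes and 1.29% of all windows in the table. Since the genes were listed in part as SRF targets, this share describes the list and is not independent of it. The stretches printed here carry the box in capitals with 8 bases on each side, 5′ to 3′ on the strand of the gene. They show a muscle-type actin with a pair of boxes, the gene of the myosin light chain kinase, a cytoplasmic actin, the calponin of non-muscle cells, the LIM protein FHL2, whose second stretch holds the same 10 letters as the first box of ACTG2, and SRF itself. The MYLK stretch is from the 1 window given for that gene, at an annotated start inside it. Its upstream end, at position 123884332, had no window, and which product uses the inner start was not examined.
ACTG2, chr2:73892890-73892915, plus strand: aaaaaccaCCTTATATGGtaatattg
ACTG2, chr2:73892927-73892952, plus strand: tcagctggCCTTTTTAGGgactttgt
MYLK, chr3:123620625-123620650, minus strand: aaaccatcCCTTTTATGGgagttgaa
ACTG1, chr17:81512876-81512901, minus strand: aaagatcgCCATATATGGacatgttc
CNN2, chr19:1026511-1026536, plus strand: cctccaggCCTTATAAGGacatttgc
FHL2, chr2:105438597-105438622, minus strand: tctggagaCCTTAAAAGGcacgtggg
FHL2, chr2:105399093-105399118, minus strand: gtgcatctCCTTATATGGtcaaatga
SRF, chr6:43171231-43171256, plus strand: ggggctcaCCATATAAGGagcggcct
SRF, chr6:43171251-43171276, plus strand: cggcctcgCCATAAAAGGaaacattg

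The other genes with a box were TPM4, ACTN1, FLNA, LPP and FHL1. CNN1, ACTA2, LMOD1, TPM1 and VCL, which appear among the strongest changes further on, had none of the exact form searched in these windows. This says only that those letters are not within that stretch, and does not speak to boxes with a variant core. Searched on both strands, the letters GGAAGGAA, a minimal GGAA repeat, were in 3.95% of the windows of these genes and 3.57% of those of all tested genes. The letters CATTCC, the core that TEAD factors read, were in 22.4% against 11.6%. The reverse complement of CATTCC shares the letters GGAA with the repeat, and these genes have 2.17 windows each against 1.46 for tested genes, so the shares are given per window and not per gene.

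Total expected counts ran from 20727706 to 33134581 per library, with the lowest in siEF replicate 2. FLI1, which the fusion shares with the normal gene, was at 57.9 ± 1.65 CPM (counts scaled to library size by TMM) in Media, 48.4 ± 0.315 in siNEG and 37.8 ± 2.0 in siEF (mean ± SD, n = 3). The log2 difference was -0.35 (SE 0.057, adjusted P = 2.88e-05) from siNEG to siEF and -0.26 (SE 0.055, adjusted P = 0.00347) from Media to siNEG, so that the nonspecific siRNA group was lower as well. NR0B1, a gene activated by the fusion, was at 177 ± 12.7, 137 ± 4.98 and 17.6 ± 2.35 CPM, with -2.97 (SE 0.079, adjusted P = 7e-15) from siNEG to siEF and -0.37 (SE 0.066, adjusted P = 0.00105) from Media to siNEG. Gene counts alone do not separate the fusion from FLI1 itself. The paper states that these cells do not express normal FLI1, in which case the FLI1 counts come from the fusion. It also describes a qPCR check of the silencing with a change of several cycles. The fall of FLI1 counts, -0.35 on the log2 scale, was much smaller than that, and the reason was not tested. Of 7 Ewing sarcoma marker genes, all were measured in every group, and their summed level was 1008 to 1051 CPM in Media, 854 to 860.0 in siNEG and 425 to 433 CPM in siEF. Besides NR0B1, LIPI (log2 -2.63, SE 0.08) and STEAP1 (log2 -2.29, SE 0.083) fell most, and 6 of the 7 were called lower, beside 11.7% of all tested genes. The other 1 went the opposite way. It was higher in siEF at an adjusted P under 0.01 by edgeR without being called, as against 33.6% of all tested genes higher at that P. The 10 genes with the most reads took 12.3% to 12.9% of counts in siEF, against 5.78% to 6.62% in the 6 other libraries. In bulk RNA, more cells of a type and more RNA per cell cannot be told apart.

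With the fusion silenced, a large part of this machinery was higher and SRF itself differed little. Of the 37 genes that passed the filter on low counts, 19 were called higher in siEF than in siNEG and 0 lower, where 28.8% of all 16093 tested genes were called, 17.1% higher and 11.7% lower. A call means an adjusted P under 0.01 together with a change of more than 2-fold (beyond 1 on the log2 scale) in the quasi-likelihood test of edgeR with Benjamini-Hochberg adjustment over all tested genes, which also gave every adjusted P in the text except those of a test against the fold criterion (glmTreat of edgeR). DESeq2 likewise called 19 higher and 0 lower, and at an unadjusted P under 0.05 there were 30 higher and 5 lower, where 39.2% and 36.3% of all tested genes were. Without the fold criterion 30 genes were higher and 5 lower, against 33.6% and 31.7% of all tested genes. The median log2 fold change of the 37 was 1.05, beside 0.046 for all tested genes. In each of the 37, the 3 siEF libraries lay entirely above (30 genes) or entirely below (7 genes) the 3 siNEG libraries, which was also so for 76.9% of all tested genes (39.8% above and 37.1% below).

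Reads from these genes made up 2.86% to 2.99% of all counts in siEF, 1.85% to 1.96% in siNEG and 1.82% to 1.96% in Media. The filter kept 35 of the 37 on the 6 control libraries alone. ACTG2 and CNN1 passed only through their siEF values, so a difference in those genes is partly built into their being tested. MYL9, the regulatory light chain of smooth muscle myosin, had 2 counts over all 9 libraries together, and MYH11, the smooth muscle myosin heavy chain, had at most 9 counts in a library. The defining smooth muscle myosin genes were therefore at or near 0 in every group.

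**Figure D1:**
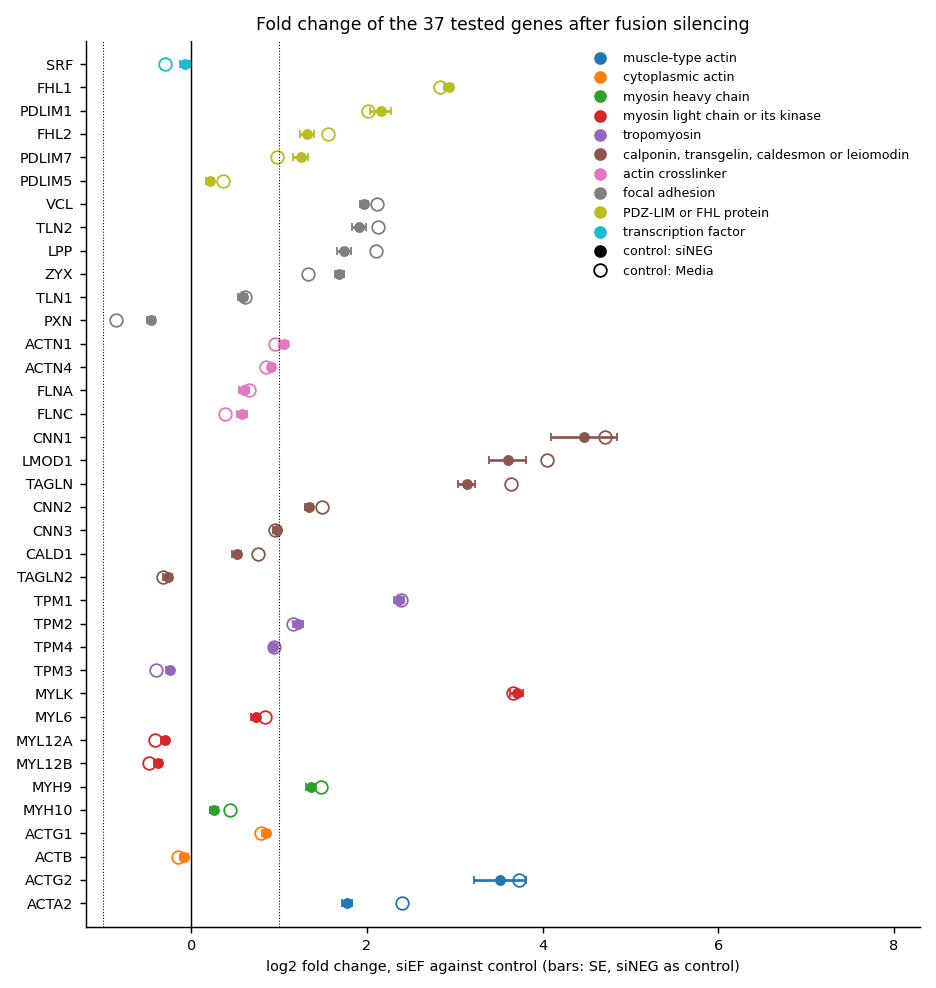
Log2 fold change of the 37 tested genes in siEF against siNEG (filled points, bars show the SE) and against Media (open points), coloured by role and ordered within each role. Among the filled points CNN1 stands farthest to the right at 4.47 and PXN farthest to the left at -0.46, the open points of the same genes lie at 4.71 and -0.86, and the dotted lines mark the fold criterion of 1 in each direction.

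The muscle-type actins rose. ACTA2 (ENSG00000107796.13, chr10:88935074-88991339, minus strand) encodes the alpha-actin of vascular smooth muscle and myofibroblasts. It was at 203, 199.9 and 217 CPM in the siEF libraries, 57.9, 63.6 and 60.1 in siNEG and 42.3, 36.9 and 38.9 in Media. The 3 groups did not overlap, and the log2 fold change against siNEG was 1.77 (SE 0.058, adjusted P = 7.74e-14). ACTG2 (chr2:73892314-73919865, plus strand), the gamma-actin of visceral smooth muscle and the bearer of the pair of boxes printed above, was far scarcer, at 3.47, 3.77 and 3.84 CPM in siEF against 0.316, 0.383 and 0.256 in siNEG and 0.261, 0.381 and 0.175 in Media. It rose by 3.51 (SE 0.30, adjusted P = 1.62e-08) on the log2 scale. ACTA2 overlaps exons of FAS on the other strand, whose highest level was 12.6% of the mean of ACTA2.

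The cytoplasmic actins, which every cell uses and which differ by a few amino acids, parted from each other. ACTG1 was at 7024, 7389 and 6900.3 CPM in siEF and 3850.4, 3973 and 4002 in siNEG, and its log2 fold change of 0.85 (SE 0.047, adjusted P = 6.58e-11) passed the P threshold but not the fold criterion. ACTB was at 3983, 4148 and 3987 CPM in siEF, 4191, 4287 and 4362 in siNEG and 4664, 4526 and 4251 in Media. Its siEF libraries all lay below those of siNEG, yet its log2 fold change of -0.083 (SE 0.042, adjusted P = 0.083) did not pass, and its sign depended on the scaling. Against Media it was -0.15 (SE 0.042, adjusted P = 0.00415). Within a library, where scaling cancels, the ratio of ACTG1 to ACTB counts was 1.76, 1.78 and 1.73 in siEF, 0.919, 0.927 and 0.917 in siNEG and 0.915, 0.928 and 0.890 in Media. The siEF and siNEG ratios did not overlap (exact two-sided permutation test, P = 0.1, the smallest that 3 against 3 libraries allow). With every siEF library above siNEG for ACTG1 and below it for ACTB, this outcome was fixed and is not a further result. Per kilobase of transcript, ACTB was the more abundant of the pair in siNEG, with 52.9% ± 0.158 of the actin total, and ACTG1 in siEF, with 60.8% ± 0.442. These paralogues share sequence, and both had fractional expected counts, so the split of shared reads by the authors' counting enters their values.

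**Figure D2:**
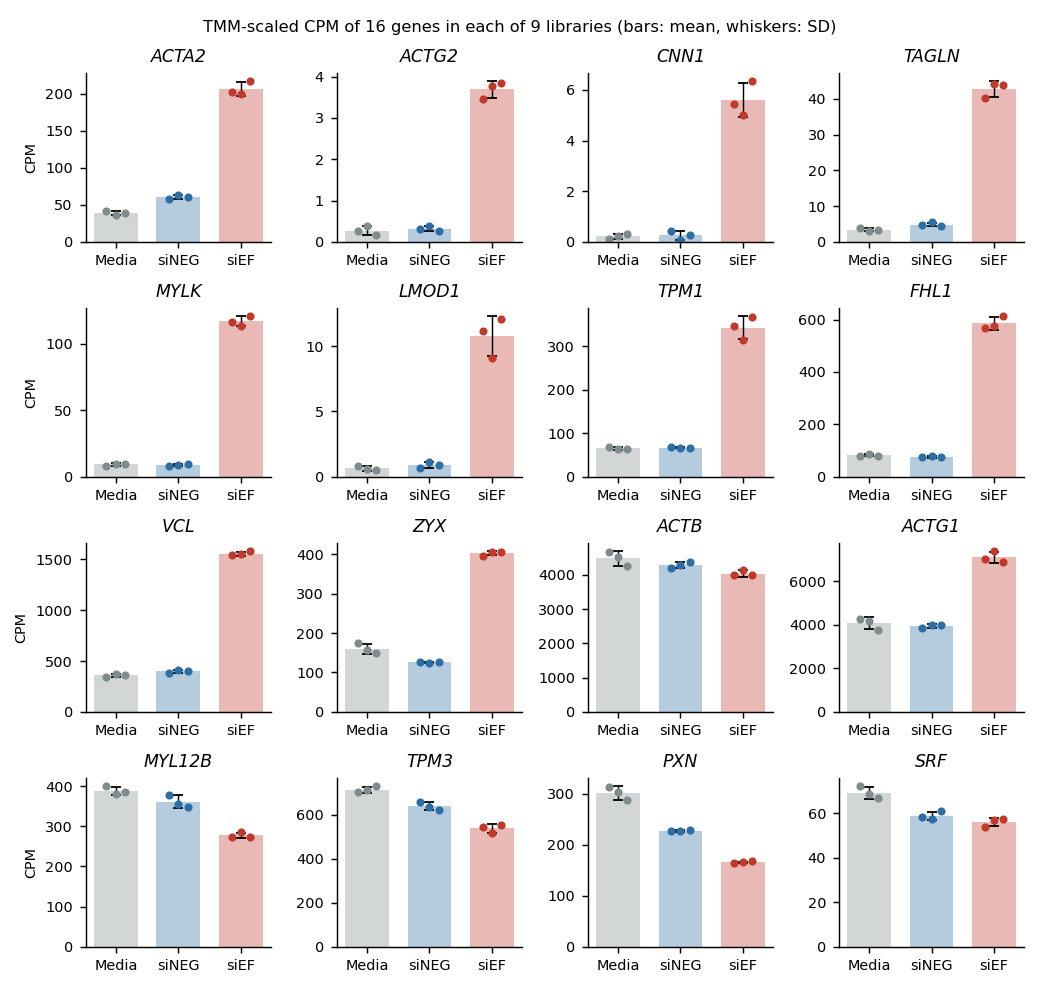
TMM-scaled CPM (vertical axes, each starting at 0) of 16 genes in the Media, siNEG and siEF libraries; points are libraries, bars the mean of 3 and whiskers the SD. ACTA2, CNN1, MYLK and FHL1 are far higher in siEF, ACTB and SRF differ little between siNEG and siEF, and PXN steps down from Media over siNEG to siEF.

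Of the 7 calponins, transgelins, caldesmon and leiomodin, which coat or seed the actin filament, 4 were called higher. Of all tested genes 17.1% were. CNN1 (chr19:11538767-11550323, plus strand), the calponin of differentiated smooth muscle, was at 5.46, 5.0 and 6.34 CPM in siEF, 0.411, 0.0589 and 0.289 in siNEG and 0.0980, 0.222 and 0.314 in Media. Its log2 fold change of 4.47 (SE 0.38, adjusted P = 1.59e-08) was the largest of the 37 and rested on 13, 2 and 9 counts in the siNEG libraries. LMOD1 (chr1:201896456-201946548, minus strand), a leiomodin that nucleates actin filaments in smooth muscle, was at 11.1, 9.11 and 12.1 CPM against 0.663, 1.12 and 0.866 in siNEG. It rose by 3.60 (SE 0.21, adjusted P = 1.27e-10) on the log2 scale. TAGLN (chr11:117199370-117207464, plus strand), which encodes transgelin or SM22, an early marker of smooth muscle, was at 40.2, 44.1 and 43.9 CPM in siEF, 4.61, 5.45 and 4.49 in siNEG and 3.98, 2.92 and 3.39 in Media. Its log2 fold change was 3.13 (SE 0.099, adjusted P = 5.69e-14).

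TAGLN shares exon sequence with PCSK7 on the opposite strand, which reached 22.0 CPM. Whether counting used strand is not given in the sources used here, so reads of the overlapping genes cannot be told apart. The paralogue TAGLN2, found in most cell types, went the other way, from 362 ± 5.13 to 301 ± 11.0 CPM, or -0.27 (SE 0.049, adjusted P = 0.000119) on the log2 scale. The ratio of TAGLN to TAGLN2 counts was 0.136, 0.141 and 0.150 in siEF and 0.0126, 0.0151 and 0.0126 in siNEG. CNN2, a calponin of non-muscle cells, was called with 1.34 (SE 0.043), from 311 ± 6.01 to 789 ± 12.9 CPM. CNN3, its near relative, went from 176 ± 3.58 to 346 ± 8.59 CPM, passed the P threshold and was not called (0.97, SE 0.043, adjusted P = 3.11e-12). CALD1, caldesmon, which restrains myosin on the filament, likewise went from 323 ± 7.25 to 461 ± 20.6 CPM (0.52, SE 0.052, adjusted P = 1.42e-07).

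Myosin II is a hexamer of heavy chains and light chains, and its members split as well. MYH9 (chr22:36281280-36388010, minus strand), the heavy chain of non-muscle myosin IIA, was at 1424, 1485 and 1437 CPM in siEF and 536, 568 and 589.9 in siNEG and was called at 1.36 (SE 0.049, adjusted P = 3.11e-13) on the log2 scale. MYH10, the heavy chain of myosin IIB, rose less, from 228 ± 7.56 to 273 ± 2.34 CPM (0.26, SE 0.048, adjusted P = 0.000139). The ratio of MYH9 to MYH10 counts was 5.16, 5.45 and 5.29 in siEF, against 2.44, 2.44 and 2.54 in siNEG and 2.61, 2.53 and 2.57 in Media. Every siEF ratio thus lay above every control ratio. MYH10 overlaps exons of NDEL1 on the other strand, whose highest level was 18.1% of its mean.

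The light chains changed in opposite directions. MYL6, the essential light chain of non-muscle and smooth muscle myosin, went from 454 ± 21.5 to 753 ± 14.9 CPM, a log2 difference of 0.73 (SE 0.049, adjusted P = 8.37e-10). The regulatory light chains MYL12A and MYL12B, neighbours on chromosome 18, fell by 0.30 and 0.38 on the log2 scale, with adjusted P values of 7.41e-06 and 7.28e-07 by edgeR. MYL12B was at 273, 285 and 273 CPM in siEF and 379, 355 and 349 in siNEG, and MYL12A at 163 ± 4.43 and 201 ± 5.23. The ratio of MYL6 to MYL12B counts was 2.7, 2.64 and 2.81 in siEF and 1.26, 1.24 and 1.27 in siNEG. The lack of overlap follows from the separation of each gene in opposite directions. MYL6 overlaps SMARCC2 on the other strand, whose highest level was 31.8% of the mean of MYL6, and MYL6B on its own strand. MYLK (chr3:123610049-123884332, minus strand), the kinase that phosphorylates the regulatory light chain to start contraction, was at 117, 114 and 121 CPM in siEF, 8.37, 9.14 and 9.42 in siNEG and 8.26, 9.99 and 9.57 in Media. Its rise of 3.70 (SE 0.074, adjusted P = 2.6e-16) was the largest among those of the 37 genes with more than 1 CPM in siNEG.

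Tropomyosins lie along the filament and set which myosins and severing proteins reach it. TPM1 (chr15:63042620-63071915, plus strand) was at 347, 315 and 366 CPM in siEF and 68.0, 66.8 and 65.6 in siNEG, which is 2.36 (SE 0.056, adjusted P = 2.21e-15) on the log2 scale. TPM2 was called with 1.22 (SE 0.054, adjusted P = 3.76e-12), from 211 ± 9.60 to 491 ± 4.62 CPM. TPM4 rose from 671 ± 1.34 to 1282 ± 37.7 CPM, just short of the fold criterion at 0.93 (SE 0.041, adjusted P = 3.76e-12). TPM3 alone of the tropomyosins was lower, from 638 ± 19.3 to 538 ± 19.3 CPM (-0.25, SE 0.043, adjusted P = 7.39e-05). Per kilobase, TPM1 made up 21.8% ± 0.942 of tropomyosin in siEF and 9.24% ± 0.0584 in siNEG, whereas TPM3 made up 5.91% ± 0.0481 and 15.2% ± 0.182. These shares rest on the canonical transcript of each gene, which for TPM3 is 7064 bases long, and a different transcript would move them.

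**Figure D3:**
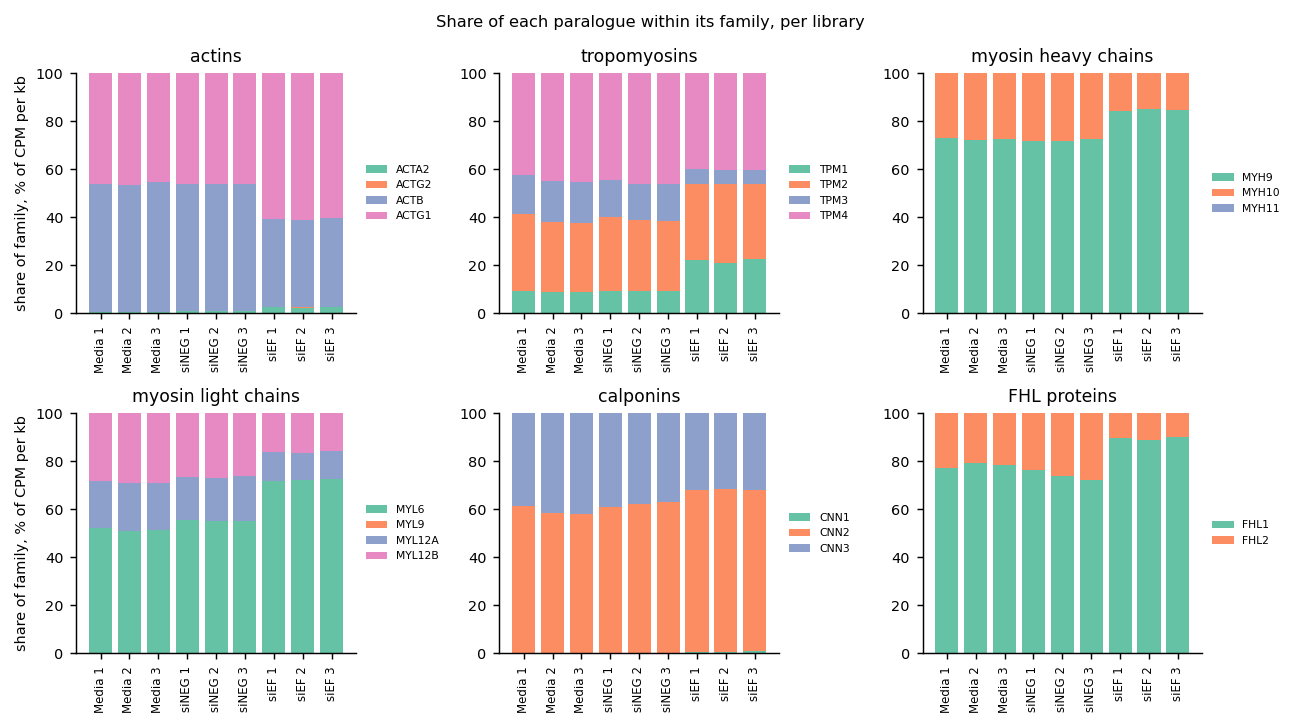
Share of each paralogue in its family, in % of CPM per kilobase of canonical transcript (vertical axis), for each of the 9 libraries. The 3 siEF libraries differ from the 6 control libraries in the shares of ACTG1, TPM1, TPM3, MYH9, MYL6 and FHL1, and the libraries of a group resemble each other.

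The 4 proteins that tie filaments together all passed the P threshold upward, and 1 was called. Of all tested genes 33.6% passed it upward and 17.1% were called higher. ACTN1 went from 136 ± 5.51 to 282 ± 8.53 CPM and was called at 1.05 (SE 0.047, adjusted P = 3.98e-12), but without siNEG replicate 1 the value was 0.985 and the call was lost, as it was in a test against the fold criterion (adjusted P = 0.202). ACTN4, the other non-muscle alpha-actinin, went from 433 ± 9.49 to 814 ± 16.0 CPM (0.91, SE 0.045, adjusted P = 1.48e-11). FLNA, filamin A, was at 5114, 5497 and 5136 CPM in siEF and 3196, 3601 and 3588 in siNEG (0.60, SE 0.053, adjusted P = 2.55e-08). FLNC, the filamin of striated muscle, went from 362 ± 22.6 to 539.8 ± 24.8 CPM (0.58, SE 0.054, adjusted P = 4.91e-08). The proportions within these pairs changed by far less than those of the actins. FLNA made up 91.3% ± 0.141 of filamin per kilobase in siEF and 91.1% ± 0.0489 in siNEG, and ACTN4 68.3% ± 0.243 and 70.3% ± 0.426 of the alpha-actinin pair.

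At focal adhesions, 4 of 6 genes were called higher, where 17.1% of all tested genes were. VCL (chr10:73995193-74121363, plus strand), vinculin, which reinforces the link from talin to actin under load, was at 1545, 1549 and 1581 CPM in siEF, 384, 411 and 403 in siNEG and 347, 374 and 361 in Media. Its log2 fold change was 1.96 (SE 0.045, adjusted P = 1.27e-15). ZYX (chr7:143381295-143391111, plus strand), zyxin, which gathers at strained stress fibres, was at 397, 405 and 406 CPM against 126, 124 and 126 in siNEG (1.68, SE 0.052, adjusted P = 4.46e-14). The related LIM protein LPP went from 32.7 ± 3.05 to 109 ± 1.59 CPM and was called at 1.74 (SE 0.079, adjusted P = 5.19e-12). TLN2, the talin known from muscle and brain, was called at 1.91 (SE 0.079, adjusted P = 1.58e-12), from 27.7 ± 3.42 to 104 ± 2.11 CPM. TLN1, the main talin of most cells, went from 302 ± 16.4 to 453 ± 15.9 CPM, passed the P threshold at 0.59 (SE 0.051, adjusted P = 2.32e-08) and was not called.

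PXN, paxillin, an adaptor at the same adhesions, moved the other way. It was at 165, 165 and 167 CPM in siEF, 227, 226 and 229 in siNEG and 314, 302 and 287 in Media, so that its groups stood apart in 3 steps. The log2 fold change against siNEG was -0.46 (SE 0.042, adjusted P = 4.12e-08), the largest fall among the 37. The ratio of ZYX to PXN counts was 2.41, 2.46 and 2.43 in siEF and 0.555, 0.549 and 0.549 in siNEG, and that of VCL to PXN 9.38, 9.39 and 9.47 against 1.69, 1.82 and 1.76. Both ratios were without overlap, which follows from the separation of each gene and is not a further result. VCL overlaps AP3M1 on the other strand, whose highest level was 18.4% of the mean of VCL.

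The LIM-domain proteins that dock on actinin and stress fibres were higher in siEF, with 4 of 5 called, beside 17.1% of all tested genes. FHL1 (chrX:136146702-136211359, plus strand), known for its part in skeletal and cardiac muscle, was at 568, 574 and 613 CPM in siEF, 74.2, 81.1 and 75.2 in siNEG and 79.8, 85.8 and 80.6 in Media. Its log2 fold change of 2.93 (SE 0.051, adjusted P = 6.49e-17) had the smallest adjusted P of the 37. FHL2, a cofactor that can bind SRF, was called with 1.32 (SE 0.08, adjusted P = 2.01e-10), from 18.7 ± 2.27 to 46.6 ± 2.46 CPM. The PDZ-LIM adaptors of the stress fibre were less even. PDLIM1 went from 5.51 ± 0.474 to 24.6 ± 2.20 CPM and was called at 2.16 (SE 0.12, adjusted P = 8.56e-11). PDLIM7 went from 26.1 ± 1.79 to 61.9 ± 0.994 CPM and was called at 1.24 (SE 0.083, adjusted P = 6.65e-10). PDLIM5 passed the P threshold at 0.21 (SE 0.044, adjusted P = 0.000407) without being called, from 232 ± 6.86 to 268 ± 2.77 CPM.

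SRF (chr6:43171269-43181506, plus strand) did not share in these rises. It was at 53.9, 57.0 and 57.4 CPM in siEF, 58.4, 57.5 and 60.9 in siNEG and 72.1, 68.5 and 66.8 in Media. The siEF libraries lay just below those of siNEG, and the log2 fold change of -0.071 (SE 0.054, adjusted P = 0.248) did not pass and had a sign that depended on the scaling. Both siRNA groups lay below Media. The log2 fold change against Media was -0.30 (SE 0.054, adjusted P = 9.04e-05) for siEF and -0.23 (SE 0.053, adjusted P = 0.00625) for siNEG, neither beyond the fold criterion.

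Of 8 genes listed as SRF cofactors or their regulators, 7 were tested and 3 were called, all higher, where 17.1% of all tested genes were. The median log2 fold change of the list was 0.897, beside 0.046 for all tested genes. MRTFA, the actin-regulated cofactor, went from 24.2 ± 1.24 to 45.1 ± 1.27 CPM, just short of the fold criterion at 0.90 (SE 0.063, adjusted P = 1.24e-09), and MRTFB was at 0.31 (SE 0.066, adjusted P = 0.000437). MYOCD, the smooth muscle cofactor myocardin, was called from 21, 12 and 28 counts in siEF and 2, 2 and 3 in siNEG, too few for a fold, and passed the filter only through its siEF values. SCAI, known as a repressor of MRTF, was called at 1.05 (SE 0.093, adjusted P = 2.92e-08), a call lost without siNEG replicate 1 (0.955) and in a test against the fold criterion (adjusted P = 0.453). Among the ternary complex factors, ETS proteins that bind SRF at growth-factor genes, ELK3 was called at 1.15 (SE 0.067, adjusted P = 1.32e-10), a call lost in a test against the fold criterion (adjusted P = 0.0273), while ELK1 was at -0.36 (SE 0.058, adjusted P = 3.18e-05) and ELK4 at -0.17 (SE 0.052, adjusted P = 0.00618). ABRA had no counts in any library.

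The immediate-early genes, SRF targets that respond to growth factors, did not move as one. EGR1 was called at 1.68 (SE 0.072, adjusted P = 2.42e-12), EGR2 at 2.0 (SE 0.14, adjusted P = 1.58e-09), EGR3 at 2.86 (SE 0.23, adjusted P = 7.06e-09) and JUNB at 1.24 (SE 0.076, adjusted P = 2.12e-10). FOS was called lower, from 57.5 ± 0.590 to 25.5 ± 1.57 CPM (-1.17, SE 0.058, adjusted P = 1.41e-11). IER2 passed the P threshold at 0.86 (SE 0.067, adjusted P = 4.78e-09), and FOSB did not, at 0.46 (SE 0.27, adjusted P = 0.132). EGR3 also differed between siNEG and Media (1.89, SE 0.33, adjusted P = 0.000798), and EGR1 did so under the fold criterion (0.59, SE 0.08, adjusted P = 7.9e-05).

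**Figure D4:**
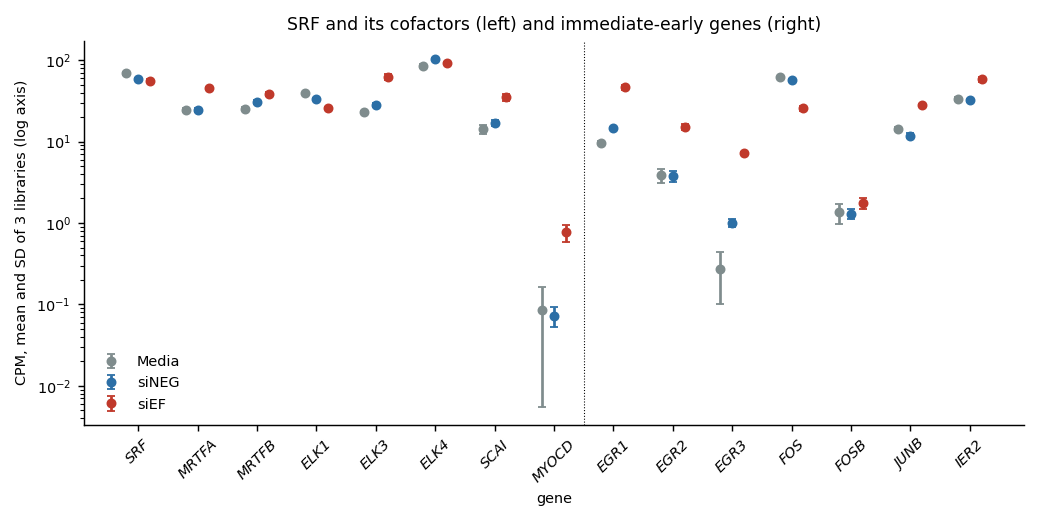
Mean CPM and SD of 3 libraries (log axis) for SRF and its cofactors, left of the dotted line, and the immediate-early genes, right of it, in Media, siNEG and siEF. SRF is nearly level between siNEG and siEF while MRTFA, ELK3 and SCAI are higher in siEF, and FOS is lower where EGR1, EGR2, EGR3 and JUNB are higher.

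Levels before silencing differed widely. The siNEG level is also the denominator of the fold, so level and fold are linked by construction, and CNN1 and ACTG2 were tested only through their siEF values. The 6 genes with the largest rises, CNN1, MYLK, LMOD1, ACTG2, TAGLN and FHL1, lay between 0.169 and 33.6 CPM per kilobase in siNEG. The 10 genes with the highest levels, from CNN2 at 145 to ACTB at 2362 CPM per kilobase, had log2 fold changes between -0.38 and 1.34. Called genes had a median of 15.3 CPM per kilobase in siNEG and genes not called one of 89.4. In the order of levels per kilobase the top pair was ACTB and ACTG1 in siNEG (2362 ± 47.3 and 2054 ± 41.9), and ACTG1 and ACTB in siEF (3702 ± 132 and 2229 ± 51.9). MYL6, FLNA and MYL12B followed in siNEG, and MYL6, FLNA and TPM4 in siEF. FLNA at 407 ± 27.0 and MYL12B at 310.3 ± 13.7 CPM per kilobase in siNEG stood apart by more than their spread. VCL and TPM1 in siEF did not, at 284 ± 3.58 and 282 ± 21.4. The 11 genes with a CArG box in their windows had a median log2 fold change of 1.32 against siNEG. The 24 with windows but no box of the exact form searched had 0.94. CNN1 at 4.47 was among those without a box and SRF at -0.071 among those with one.

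**Figure D5:**
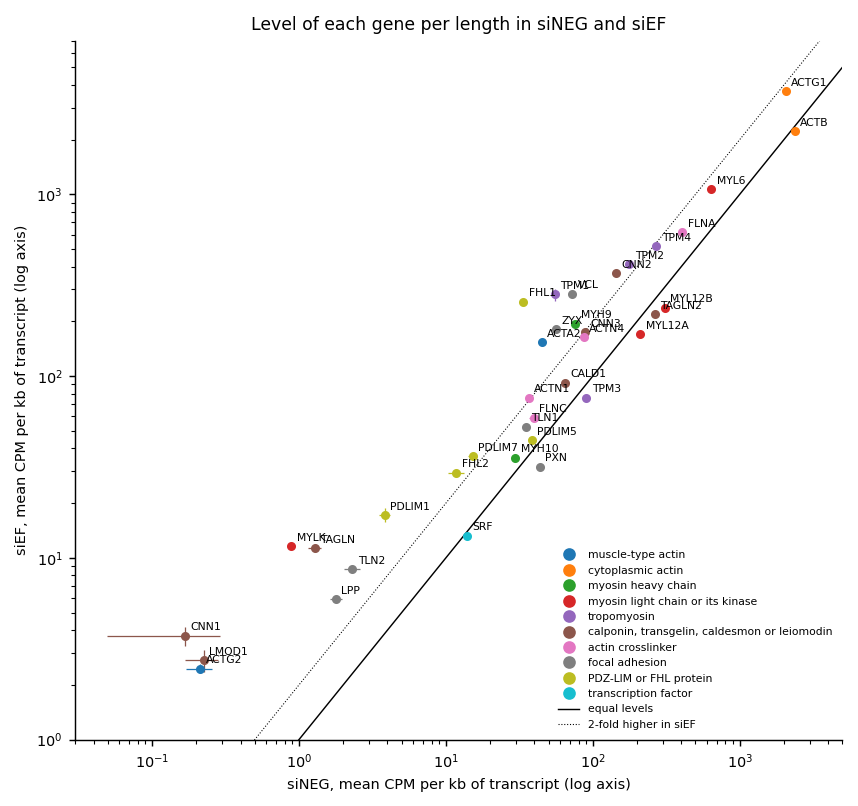
Mean CPM per kilobase of canonical transcript in siNEG (horizontal, log axis) and siEF (vertical, log axis) for the 37 tested genes, coloured by role, with SD as bars. Genes above the dotted line are more than 2-fold higher in siEF, and the genes farthest above it, such as CNN1, MYLK and FHL1, lie left of the abundant actins, FLNA and MYL6.

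Against Media, the same siEF libraries gave 17 genes called higher and 0 lower, where 29.9% of all tested genes were called, 17.4% higher and 12.5% lower. DESeq2 also called 17 and 0, and at an unadjusted P under 0.05 edgeR had 30 higher and 7 lower, where 39.0% and 36.7% of all tested genes were. Without the fold criterion 30 were higher and 7 lower, against 33.6% and 32.3% of all tested genes. The median was 0.957 beside 0.044 for all tested genes. Since both comparisons use the siEF libraries, the values are given side by side and do not count as separate evidence. All 17 were called against siNEG too. The other 2, ACTN1 and PDLIM7, lay at 0.96 (SE 0.047) and 0.98 (SE 0.082) against Media and at 1.05 and 1.24 against siNEG. ACTA2 was at 2.39 against Media and 1.77 against siNEG, TAGLN at 3.64 and 3.13, LPP at 2.10 and 1.74, ZYX at 1.33 and 1.68, and PXN at -0.86 and -0.46. PDLIM7 was called against Media when Media replicate 1 was left out (1.09).

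Between siNEG and Media, 0 of the 37 genes were called, as against 0.429% of all tested genes (0.162% higher and 0.267% lower). DESeq2 called 0 as well, and at an unadjusted P under 0.05 edgeR had 12 higher and 8 lower, where 13.9% and 16.3% of all tested genes were. The median was 0.0022 on the log2 scale. Without the fold criterion 3 genes were higher in siNEG, where 3.83% of all genes were, and 3 lower, where 5.96% were. The libraries of siNEG and Media did not overlap in 16 of the 37, 8 above and 8 below, against 32.7% of all tested genes, 15.4% above and 17.2% below. ACTA2 was higher by 0.62 (SE 0.06, adjusted P = 2.56e-06), LPP by 0.36 (SE 0.083, adjusted P = 0.00597) and CALD1 by 0.24 (SE 0.052, adjusted P = 0.00381). PXN (-0.40, SE 0.041, adjusted P = 4.57e-06), ZYX (-0.35, SE 0.052, adjusted P = 0.000167) and SRF were lower. For ACTA2, LPP, CALD1 and PXN this step had the same direction as that from siNEG to siEF, and for ZYX the opposite one.

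Genes of the same pathways outside the set of 39 were read from lists. Of 24 genes of actin assembly, 3 were called higher in siEF than in siNEG and 1 lower, beside 17.1% and 11.7% of all tested genes, and the median log2 fold change of 0.084 was near the 0.046 of all tested genes. The genes named from it are single values and do not describe the list. GSN, the severing protein gelsolin, was at 337 ± 16.4 against 60.1 ± 2.68 CPM (2.48, SE 0.058, adjusted P = 1.63e-15). TMSB4X, thymosin beta 4, which holds monomeric actin, was at 1.74 (SE 0.07, adjusted P = 1.09e-12). ARPC1B, of the Arp2/3 complex, was called at 1.04 (SE 0.062, adjusted P = 1.6e-10), a call lost without siEF replicate 2 (0.977) and in a test against the fold criterion (adjusted P = 0.35). RDX, radixin, which links filaments to the membrane, was called lower at -1.11 (SE 0.059, adjusted P = 3.73e-11), a call lost in a test against the fold criterion (adjusted P = 0.0425).

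A list of other MRTF-SRF targets had 7 of 13 tested genes called, all higher, where 17.1% of all tested genes were. Its median log2 fold change was 1.11, beside 0.046 for all tested genes. FILIP1L was at 31.6 ± 4.11 against 0.256 ± 0.0860 CPM (6.92, SE 0.21, adjusted P = 3.16e-14) and TGFB1I1, the paxillin relative Hic-5, at 2.50 (SE 0.19, adjusted P = 4.78e-09). SYNPO2 was called from 20, 19 and 21 counts in siEF and 0, 2 and 0 in siNEG, too few for a fold, and likewise passed the filter only through siEF. Among 19 other focal adhesion genes, 10 were called, all higher, where 17.1% of all tested genes were, and the median was 1.12. TNS3, a tensin, was at 251 ± 4.89 against 25.6 ± 2.06 CPM (3.29, SE 0.059, adjusted P = 8.57e-17) and PDLIM3 at 2.21 (SE 0.12, adjusted P = 6.85e-11).

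Marker lists of other cell types were read beside these genes. They did not all move in the same direction, and their part in the result was not tested. Of 8 fibroblast markers, 7 were tested and 6 were called higher in siEF than in siNEG, where 17.1% of all tested genes were. Their summed level was 6248 to 6496 CPM in siEF, 683 to 708 in siNEG and 708 to 742 in Media. That sum came mainly from COL3A1, a fibrillar collagen, at 5829.6 ± 113 CPM in siEF and 627 ± 14.1 in siNEG. COL1A1 was at 341 ± 11.2 against 15.2 ± 1.43 CPM and PDGFRA at 112 ± 3.32 against 2.01 ± 0.246. LUM was called from 35, 20 and 43 counts in siEF and 0, 0 and 1 in siNEG, too few for a fold, and passed the filter only through siEF. COL1A2, the partner chain of COL1A1 and a defining fibroblast gene, was at 0.205 ± 0.141 CPM in siEF and 0 in all 6 control libraries. Of 6 smooth muscle lineage markers 4 were called, all higher, where 17.1% of all tested genes were. MYOCD and SYNPO2 among them were already counted with the SRF cofactors and the other MRTF-SRF targets, so these lists are not separate. The summed level of the 6 markers was 151 to 156 CPM in siEF and 85.6 to 92.0 in siNEG. That sum came mainly from NOTCH3 and RGS5, and DES was at 2.79 ± 0.133 CPM in siEF. Among the called genes, MYOCD, DES and SYNPO2 did not pass the filter on the 6 control libraries alone. Their being higher is thus partly built into their being tested. Of 9 skeletal muscle markers, MYOD1, MYOG, MYF5 and MYH8 were at 0 in every library. The summed level of this list was lower in siEF, at 8.13 to 9.25 CPM, against 9.93 to 11.3 in siNEG and 10.2 to 13.5 in Media. Of the 2 tested, MYH3 was called higher, at 1.67 (SE 0.21, adjusted P = 1.86e-06), and ACTN2 lower, at -1.19 (SE 0.18, adjusted P = 1.24e-05). The call of ACTN2 was lost in a test against the fold criterion (adjusted P = 0.203). Of 8 endothelial, leukocyte and epithelial markers 5 were tested, with 3 called higher and 1 lower, beside 17.1% and 11.7% of all tested genes. The summed level of the list was 9.46 to 11.0 CPM in siEF and 4.48 to 7.55 in siNEG. CD68 was at 6.66 ± 1.11 against 1.65 ± 1.01 CPM. EPCAM was at 0.406 ± 0.0860 CPM in siEF, 0.0400 ± 0.0448 in siNEG and 0.399 ± 0.0719 in Media. It did not pass the filter on the 6 control libraries alone, and its call was lost with siNEG and Media pooled (log2 0.89, adjusted P = 0.282). CDH1 was at 0.907 ± 0.115 CPM in siEF and at 0 in the siNEG libraries, and passed the filter only through siEF. PECAM1 was called lower at -1.22 (SE 0.22, adjusted P = 8.43e-05), a call lost in a test against the fold criterion (adjusted P = 0.214), and CD3E was at 0 throughout.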

How the data were processed

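Per the study's methods, the authors mapped the RNA-seq reads to hg38 with STAR and estimated expression with RSEM. The deposited values are expected counts per gene, not scaled and not pooled. Annotation release and strand setting are not given in the sources used here. The labels name polyA RNA, an NEBNext small RNA kit and 1 batch, and the submitters' processing notes list cutadapt 2.10, FastQC and DESeq2 1.32.0. Whether the RNA type or the kit is labelled correctly was not settled. Totals ran from 20727706 to 33134581 per library, and no 2 libraries held identical values.

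Expected counts were rounded, filtered with filterByExpr, which kept 16093 genes, and scaled by TMM. The test was quasi-likelihood (edgeR 4.0.16, R 4.3.3), with a mean per group, 1 spread for the 9 libraries and Benjamini-Hochberg adjustment over all tested genes. SE is the log2 fold change over the square root of F. CPM are TMM-scaled. Positions and the lengths of canonical transcripts came from GENCODE v44 on GRCh38, which matched 60306 of 60603 gene identifiers. Promoter windows came from RefSeq on GRCh38.p14.

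The 39 genes and the lists were chosen with earlier results of these data known. The text names every one of the 39, FLI1 and NR0B1, all SRF cofactors and immediate-early genes, and from each other list at most 3 called genes per direction with the largest change. A list of signalling genes and a gene of another list are not reported here. COL1A2, COL3A1, NOTCH3, RGS5 and the markers listed at 0 were added after their values were seen. For the self-test, 200 genes were changed in simulated counts. DESeq2 1.42.0 and the other alternatives are compared in the closing section.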

Additional observations from a re-analysis of the deposited data

How the results depend on the processing

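The number of the 37 genes called against siNEG was 19, and it ran from 17 to 21 over RLE scaling (19), upper quartile scaling (21), a filter of at least 10 counts in every library (17, as ACTG2 and CNN1 are then not tested), no filter (19), DESeq2 (19), only the 6 libraries compared (19), a test against the fold criterion (18, without ACTN1) and a control that pools siNEG and Media (19). With 1 library left out it was 18 to 19. Against Media it was 17 and ran from 16 to 21 over the same settings without the pooled control, and from 17 to 18 with 1 library left out. Adjusted P under 0.01 at any fold gave 35 genes against siNEG (30 higher, 5 lower), 37 against Media (30 and 7) and 6 between siNEG and Media (3 and 3), where the other settings called 0. The median log2 fold change against siNEG was 1.14 under upper quartile scaling, 1.14 without a filter, 0.998 with at least 10 counts, 1.16 in DESeq2 and 1.00 with the pooled control, and 0.985 to 1.07 with 1 library left out. Against Media the median was 1.06, 0.922, 0.986 and 0.942 in the first 4 of these, and 0.937 to 0.980 with 1 library left out. Between siNEG and Media it was 0.015 under upper quartile scaling, -0.012 with at least 10 counts, -0.022 with 6 libraries and -0.010 to 0.014 with 1 library left out. The cause of these shifts was not tested, except that the filters change which genes are counted. Upper quartile scaling moved the median of all tested genes by 0.086 against siNEG and 0.099 against Media. It turned the sign of ACTB (0.0034) and SRF (0.015) against siNEG, neither of which passed the test, and took TPM4 and CNN3 over the fold criterion.

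Replicate numbers do not pair the libraries: over the 9 pairs with the same number in different groups, the correlation of deviations from the group means ran from -0.088 to 0.048. With the replicate block the counts of called genes were 19, 17 and 0 and the median against siNEG was 1.05, and no call of a single gene among those described changed.

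With 3 libraries per group a permutation test cannot go below P = 0.1. In simulated counts made from these libraries, 177 of 200 genes changed by a log2 of 2 were called, or 158 of the 160 at a mean of 1 CPM or more. Far fewer genes were changed there than were called between siEF and siNEG, and all by the same size. The simulation therefore does not bear on calls near the fold criterion or on the scaling. ACTG2, CNN1, LMOD1 and MYOCD, among others, lay under 1 CPM in siNEG, where fold sizes are least precise, and levels per kilobase depend on the transcript chosen. Reads shared by paralogues and by genes on opposite strands could not be separated here.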
